A study of Arabidopsis thaliana with 8 samples.

Results

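The RBOH genes of Arabidopsis thaliana encode the respiratory burst oxidase homologues, the NADPH oxidases of the plant plasma membrane. The family was taken as the 10 count-table rows for RBOHA (AT5G07390), RBOHB (AT1G09090), RBOHC (AT5G51060, also RHD2), RBOHD (AT5G47910), RBOHE (AT1G19230), RBOHF (AT1G64060), RBOHG (AT4G25090), RBOHH (AT5G60010), RBOHI (AT4G11230) and RBOHJ (AT3G45810), 10 of 33602 genes in all. Expression was measured by RNA sequencing of whole roots of Col-0 seedlings, the standard laboratory accession, which were 14 days old and had grown on medium with the solvent dimethyl sulfoxide (DMSO). They were moved for 4 h either to DMSO medium with 10 µM mebendazole (MBZ), a benzimidazole drug that binds tubulin in animals, or to DMSO medium alone. Each group had 4 libraries, so both groups carried the solvent, and the comparison asked how root transcripts stood after the hours on the drug. The drug assignment rests on the sample titles and the treatment field of the labels, since the MBZ sample descriptions read DMSO, 4h and SM. The labels do not say whether replicates came from separate plants or plates, so the p-values measure the spread between these libraries.

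An RBOH protein sits in the plasma membrane, takes electrons from NADPH on its cytosolic side and passes them to oxygen outside the cell, which gives superoxide and then hydrogen peroxide in the wall. Calcium binds its N-terminal EF-hands, and protein kinases and ROP GTPases act on the same N-terminal region, so its activity is set largely after translation and is not read from its transcript. In roots, RBOHC is known for root hair growth and RBOHF for the lignification of the Casparian strip of the endodermis. RBOHD carries the oxidative burst of immune and systemic signalling, and RBOHH and RBOHJ serve pollen tube growth.

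After 4 h of mebendazole the RBOH transcripts of the root were, for the most part, modestly higher. RBOHG rose most, 1.63-fold, followed by RBOHD at 1.29-fold, RBOHC at 1.26-fold, RBOHE at 1.18-fold, and RBOHA and RBOHB at 1.13-fold each. RBOHF, the family's most abundant transcript per length in solvent, fell by 6.49%. RBOHI was not past the threshold, and the pollen genes RBOHH and RBOHJ had next to no reads in either group.

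The members differ in sequence. Proteins translated from the RefSeq gene models (assembly TAIR10.1) ran from 843 residues for RBOHB to 952 for RBOHE. Over the 45 pairs of members, identical residues made up between 45.4% of the aligned positions, for RBOHG and RBOHJ, and 83.5%, for RBOHH and RBOHJ. Of the detected genes the closest pair was RBOHC and RBOHG, at 73.3%, and RBOHF was closest to RBOHI, at 61.9%. The longest run of identical bases shared by any pair of transcripts was 40, between RBOHH and RBOHJ, and 0 pairs shared a stretch of 50 bases. RBOHC and RBOHG shared at most 26 bases in a row. The read length and the handling of reads that match several places are not given in the sources used here.

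**Figure D1:**
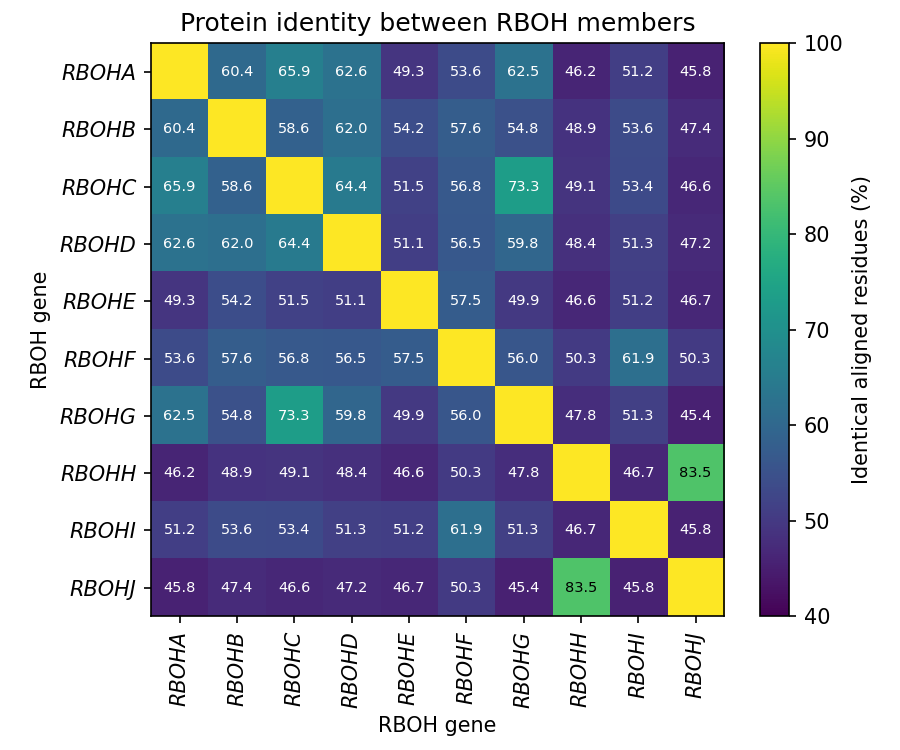
Percentage of identical residues among aligned positions for each pair of RBOH proteins, translated from RefSeq gene models (rows and columns, the 10 members; colour and printed number, percent identity). RBOHH and RBOHJ form the closest pair at 83.5%, and RBOHC and RBOHG follow at 73.3%.

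Some members do overlap a neighbouring gene at their ends, and the strand setting of the authors' counting is not given in the sources used here. RBOHG overlaps CHLM (AT4G25080), a chlorophyll synthesis gene on the opposite strand, by 37 bases. CHLM itself had 35.2 CPM in DMSO and 35.4 CPM in MBZ (counts scaled to library depth, group means), a log2 fold change of 0.01 with an edgeR adjusted p of 0.821. Opposite-strand overlaps of 169, 133 and 59 bases involve RBOHA with AT5G07380, RBOHE with AT1G19240 and RBOHB with RPT5B (AT1G09100). The log2 fold changes of these neighbours were -0.10, -0.08 and -0.01, and edgeR gave them adjusted p-values of 0.590, 0.254 and 0.735.

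The 250 bases before the annotated transcript start are shown for the gene that rose most (RBOHG), for the 2 genes next in size (RBOHC and RBOHD) and for the gene that fell (RBOHF). They are given 5′ to 3′ on the gene's own strand, from RefSeq assembly TAIR10.1; the submitters' processing notes name TAIR10, and no coordinate was converted. Capitals mark TTGAC, the core of the W-box bound by WRKY factors, and ATGTA, a core found in sites of the ethylene factor EIN3, on either strand.
RBOHG, chr4:12883806-12884055, minus strand: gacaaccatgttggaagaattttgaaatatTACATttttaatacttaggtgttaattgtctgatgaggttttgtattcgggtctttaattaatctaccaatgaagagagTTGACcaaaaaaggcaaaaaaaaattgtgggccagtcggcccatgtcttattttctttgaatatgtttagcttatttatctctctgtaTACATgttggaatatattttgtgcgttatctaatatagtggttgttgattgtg
RBOHC, chr5:20762462-20762711, minus strand: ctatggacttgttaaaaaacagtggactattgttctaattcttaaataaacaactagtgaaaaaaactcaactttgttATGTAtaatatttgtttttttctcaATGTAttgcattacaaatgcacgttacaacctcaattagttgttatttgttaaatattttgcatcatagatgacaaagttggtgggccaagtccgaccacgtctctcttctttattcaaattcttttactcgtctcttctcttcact
RBOHD, chr5:19396791-19397040, plus strand: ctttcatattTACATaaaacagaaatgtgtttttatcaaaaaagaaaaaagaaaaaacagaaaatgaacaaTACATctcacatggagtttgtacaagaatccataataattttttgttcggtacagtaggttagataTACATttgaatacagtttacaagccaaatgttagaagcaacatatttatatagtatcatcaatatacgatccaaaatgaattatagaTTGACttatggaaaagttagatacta
RBOHF, chr1:23769524-23769773, plus strand: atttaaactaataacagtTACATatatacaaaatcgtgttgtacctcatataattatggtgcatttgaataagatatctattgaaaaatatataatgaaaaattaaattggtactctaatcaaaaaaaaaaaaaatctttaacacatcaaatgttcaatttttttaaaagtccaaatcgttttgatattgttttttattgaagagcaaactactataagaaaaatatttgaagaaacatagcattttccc

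Among the windows of all 10 members, 6 held TTGAC and 8 held ATGTA, against 44.9% and 52.0% of the windows of the same length before 27443 protein-coding genes. RBOHG held 1 TTGAC and 2 ATGTA, RBOHC 2 ATGTA, RBOHD 1 TTGAC and 3 ATGTA, and RBOHF 1 ATGTA, so the gene that fell and the genes that rose shared the second motif. None of the 10 windows (0 of 10) held the G-box CACGTG, the GCC box GCCGCC bound by ERF factors, the evening element AAAATATCT or the root hair element bound by RSL factors. Those were found in 6.49%, 1.87%, 2.36% and 0.754% of all windows.

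The counts behind these values were deep. Library totals ran from 38042437 to 54818801 counts, at which 3 counts correspond to between 0.0547 and 0.0789 CPM. In all 12 pairs of replicate libraries the counts differed by more than sampling noise (chi-square per degree of freedom 1.59 to 2.37). Each library was therefore kept as a replicate. That excess cannot show that the libraries came from separate plants, since separate preparations of the same RNA can also differ by more than sampling noise. The common biological coefficient of variation in edgeR was 1.91%. All 12 root marker genes on the list passed the count filter, 6 higher and 6 lower in MBZ (32.9% and 33.6% over all genes tested). Their summed level was 14750 to 14980 CPM in DMSO and 9717 to 9758 CPM in MBZ, most of it from PYK10, a root beta-glucosidase gene, without which it was 889.6 to 900.2 CPM and 1158 to 1175 CPM. Of the green-tissue markers, 9 of 9 tested were lower in MBZ, beside 33.6% of all genes tested. The summed level of the green-tissue markers was 74.7 to 78.7 CPM in DMSO and 32.0 to 34.1 CPM in MBZ. The part of these marker changes in the RBOH results was not tested. In whole-root RNA, fewer cells of a type and less RNA per cell cannot be told apart.

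Transcripts were first compared per length within each group, in the authors' RPKM values (reads scaled to gene length and library depth), which cover 8 of the 10 members. In DMSO, RBOHF led with 32.9 ± 1.098 RPKM (SD, n = 4 for all RPKM values here). RBOHD had 22.7 ± 0.347, RBOHC 21.6 ± 0.249 and RBOHG 20.9 ± 0.527 RPKM. RBOHB had 14.3 ± 0.560 and RBOHE 13.4 ± 0.381 RPKM, with RBOHA at 4.74 ± 0.276 and RBOHI at 2.76 ± 0.181 RPKM. The ranges of RBOHC and RBOHG overlapped, as did those of RBOHB and RBOHE; the other neighbours in this order were separate in all 4 libraries.

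In MBZ the order had changed at its top. RBOHG led with 33.7 ± 0.904 RPKM, followed by RBOHF with 30.4 ± 0.977, RBOHD with 28.9 ± 0.283 and RBOHC with 27.0 ± 0.599 RPKM, and these 4 ranges did not overlap. RBOHB and RBOHE, at 16.0 ± 0.510 and 15.7 ± 0.369 RPKM, did overlap, and RBOHA and RBOHI stayed last at 5.27 ± 0.196 and 2.92 ± 0.179 RPKM. RBOHG thus passed from the fourth place to the first.

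**Figure D2:**
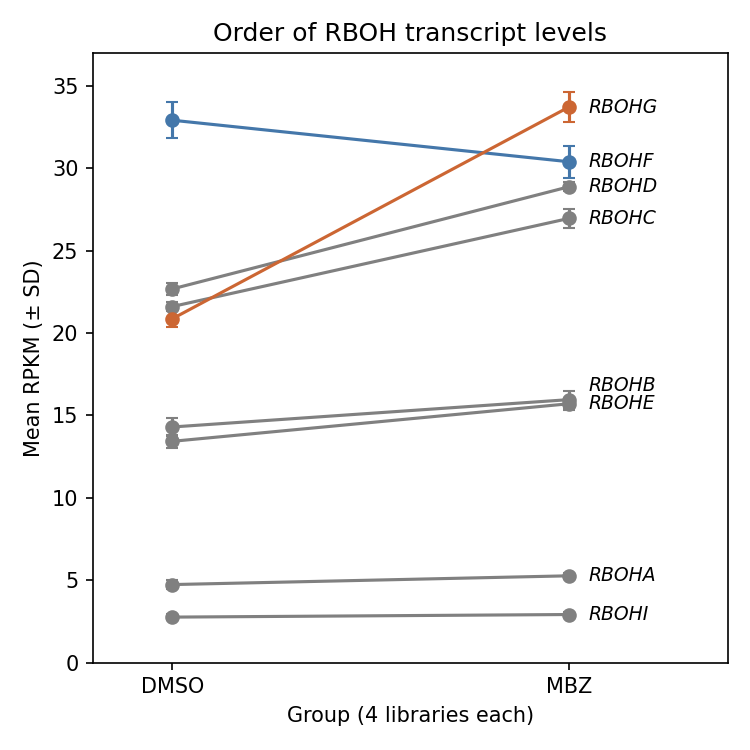
Mean RPKM (vertical axis, ± SD over 4 libraries) of the 8 RBOH genes with RPKM values in DMSO and MBZ (horizontal axis), each line a gene. RBOHG, in orange, moves from 20.9 to 33.7 RPKM and passes RBOHF, in blue, which moves from 32.9 to 30.4.

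The RPKM of the 8 genes together came to between 130.4 and 134.9 per library in DMSO and between 157.5 and 160.8 in MBZ. Within that sum RBOHF held 24.7% ± 0.564 in DMSO and 19.0% ± 0.471 in MBZ, while RBOHG held 15.7% ± 0.198 and 21.1% ± 0.520 (SD, n = 4 each). The share of RBOHC moved from 16.2% ± 0.268 to 16.9% ± 0.244 and that of RBOHD from 17.0% ± 0.528 to 18.1% ± 0.319. Since these are shares of the family's own sum, they do not depend on how the libraries were scaled.

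MBZ and DMSO were then compared with edgeR's quasi-likelihood test on the raw counts, fitted over all 20867 genes that passed the count filter, with Benjamini-Hochberg adjustment over all of them and a threshold of 0.05. Of the 8 members that passed the filter, 7 were past the threshold, 6 higher and 1 lower. Over all genes tested 66.5% were past it, 32.9% higher and 33.6% lower, beside 87.5% of the tested members past it and 75% of them higher. With calls this common over all genes, the size of a change says more about a member than its call. The members' median log2 fold change was 0.21, beside 0.0003 over all genes tested. Without regard to sign, the median log2 fold change over all genes tested was 0.192, so several members changed by an ordinary amount. Larger absolute changes were found for 53.1% of all genes tested in the case of RBOHA, and likewise for RBOHB. The figures for RBOHE and RBOHI were 41.9% and 69.3%. The 6 rises and the 1 fall held their calls and directions in every one of the 8 fits that each left out 1 library, DMSO replicate 4 included, which lay apart from its group on the second principal component.

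**Figure D3:**
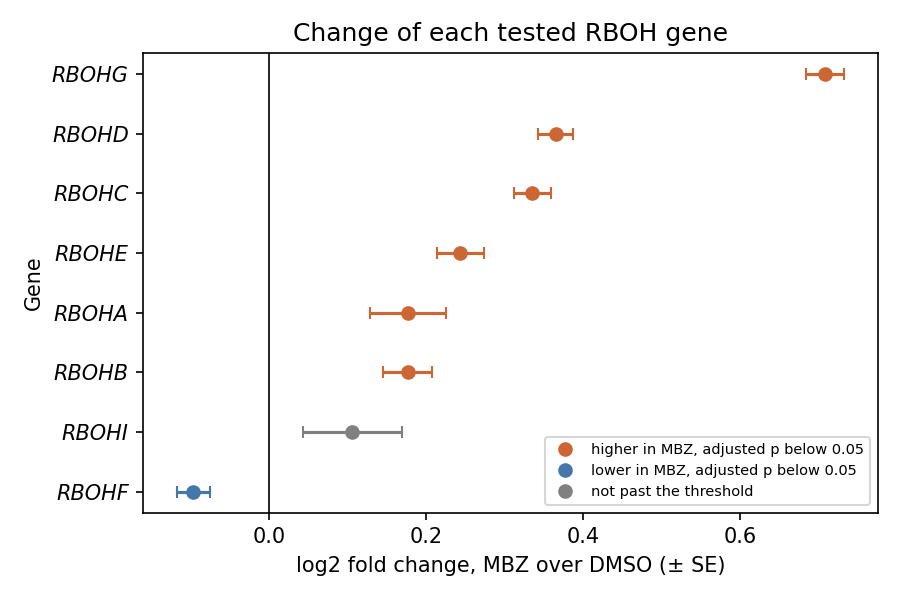
Log2 fold change of MBZ over DMSO (horizontal axis) with its standard error for the 8 RBOH genes that passed the count filter (vertical axis), coloured by the edgeR call. RBOHG stands at 0.71 and RBOHF at -0.10, with RBOHI, in grey, not past the threshold.

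RBOHG, a close relative of the root hair oxidase RBOHC, changed most. Its levels in DMSO were 55.9, 56.3, 58.2 and 58.7 CPM in replicates 1 to 4, scaled here with TMM factors, and in MBZ 91.3, 96.3, 95.0 and 91.7 CPM. Every MBZ library lay above every DMSO library, and the gap between the groups was wider than either group's range. On the log2 scale RBOHG rose by 0.71 ± 0.02 (SE, n = 4 each), with an adjusted p of 7.13e-45 in edgeR. Of all genes tested, 13.5% had a larger absolute change. RBOHG was the only member past a test against a 1.5-fold change (edgeR glmTreat adjusted p = 1.81e-06), which 12.3% of all genes tested passed.

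RBOHC, which supplies the superoxide that root hairs need to elongate, is the closest relative of RBOHG. It had 67.3, 68.4, 68.3 and 67.2 CPM in the DMSO libraries and 85.5, 86.3, 87.4 and 83.0 CPM in the MBZ libraries. The groups did not overlap, and the DMSO values lay closer together than the MBZ values. On the log2 scale RBOHC rose by 0.34 ± 0.02 (SE, n = 4 each), with an adjusted p of 1.29e-23 in edgeR. The RPKM of RBOHG divided by that of RBOHC was 0.949, 0.941 and 0.974 in DMSO replicates 1 to 3, 1 in DMSO replicate 4, and 1.22, 1.28, 1.24 and 1.26 in the MBZ libraries. RBOHG was thus level with or below RBOHC in solvent and above it in every drug library.

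Root hair markers did not all move in the direction of RBOHC. Of 12 such genes, 7 were higher and 3 lower in MBZ (32.9% and 33.6% over all genes tested), with 2 not past the threshold. Beside RSL2, given below, COBL9 and LRX1 were the genes that fell, with log2 fold changes of -0.13 and -0.10. On the log2 scale the median change of the 12 genes was 0.23. Their summed level ran from 574.4 to 598.9 CPM in DMSO and from 741.9 to 768.9 CPM in MBZ. Without PRP1, a cell wall protein gene that went from 42.0 to 157.7 CPM, the sum of the other 11 ran from 534.7 to 556.2 CPM and from 592.8 to 608.7 CPM. None of the 12 was at 0 in all libraries (0 genes). The transcription factor genes RSL4 and RSL2, which act in root hair growth, went opposite ways, with log2 fold changes of 1.37 and -1.16. The part of root hair cell number in the RBOHC result was not tested.

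RBOHD, the oxidase of the immune burst and of systemic signals, had 73.5, 71.5, 70.7 and 71.4 CPM in the DMSO libraries and 93.0, 91.5, 91.8 and 93.5 CPM in the MBZ libraries. The groups did not overlap. It rose by 0.36 ± 0.02 on the log2 scale (SE, n = 4 each), with an adjusted p of 1.15e-26 in edgeR. Larger absolute changes were found for 29.0% of all genes tested, and for 31.6% in the case of RBOHC.

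RBOHF, which drives the lignification of the Casparian strip and acts with RBOHD in stomata, had 122.3, 131.5, 130.5 and 128.9 CPM in the DMSO libraries. In the MBZ libraries it had 124.3, 117.8, 121.4 and 115.6 CPM. The groups overlapped: MBZ replicate 1 lay above DMSO replicate 1, the lowest of its group, while the other MBZ values lay below all DMSO values. The log2 fold change was -0.10 ± 0.02 (SE; edgeR adjusted p = 4.32e-05, n = 4 each), and 71.6% of all genes tested changed more in absolute terms. RBOHF was lower under all 4 scalings of the counts (TMM, DESeq2 size factors, upper-quartile factors and library size alone). The RPKM of RBOHG divided by that of RBOHF was 0.649, 0.608, 0.633 and 0.647 in the DMSO libraries and 1.04, 1.16, 1.11 and 1.13 in the MBZ libraries, so the ratio crossed 1 between the groups without overlap.

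Genes of the endodermis, where RBOHF works, were also measured. Of 8 endodermis markers 6 were lower, 0 higher and 2 not past the threshold, beside 33.6% lower and 32.9% higher over all genes tested. The median log2 fold change of the 8 markers was -0.17. Their summed level was 363.8 to 372.9 CPM in DMSO and 332.3 to 347.5 CPM in MBZ, and none was at 0 in all libraries (0 genes). SCR, a transcription factor gene of the endodermis that was counted with the root markers, rose by 0.23 on the log2 scale (edgeR adjusted p = 2.09e-10). Among the 6, CASP1, a scaffold protein of the Casparian strip, had a log2 fold change of -0.05 and lost its call without DMSO replicate 1, DMSO replicate 2, MBZ replicate 1 or MBZ replicate 4, where edgeR gave adjusted p-values of 0.0552, 0.0567, 0.0942 and 0.0572. The part of endodermal cell number in the RBOHF result was not tested.

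RBOHE, known for its role in programmed cell death of the anther tapetum, had 38.8 to 41.6 CPM in DMSO and 46.3 to 48.7 CPM in MBZ. Its groups did not overlap, and it rose by 0.24 ± 0.03 on the log2 scale (SE), with an adjusted p of 7.59e-12 in edgeR. RBOHB, known from seed after-ripening, had 36.5 to 39.6 CPM in DMSO and 41.4 to 44.7 CPM in MBZ, again without overlap, and rose by 0.18 ± 0.03 on the log2 scale (SE), with an adjusted p of 5.36e-07 in edgeR. RBOHA had 13.7 to 15.5 CPM in DMSO and 15.5 to 16.8 CPM in MBZ. There DMSO replicate 4 lay just above MBZ replicate 2, and the log2 fold change was 0.18 ± 0.05 (SE; edgeR adjusted p = 9.64e-04).

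In all, 5 of the 8 tested members had groups that did not overlap, each higher in MBZ. Of all genes tested 59.0% had groups that did not overlap, and 29.4% did so with MBZ higher.

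RBOHI had 7.94 to 9.06 CPM in DMSO and 8.62 to 9.67 CPM in MBZ, ranges that overlapped. Its log2 fold change was 0.11 ± 0.06 (SE) and was not past the threshold (edgeR adjusted p = 0.134). With 341 to 520 counts per library, the counting error of its log2 fold change alone was 0.05, against 0.02 or less for RBOHC, RBOHD, RBOHF and RBOHG.

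RBOHH and RBOHJ, which act together in the growing pollen tube, did not pass the count filter. RBOHH had 2 counts over the 4 DMSO libraries and 4 over the 4 MBZ libraries, and RBOHJ had 0 and 2. No library held more than 2 counts of either gene, which is under the 3 counts that a value of 0 allows, so no fold is given. Of 10 pollen markers, PPME1 was at 0 in all libraries and 4 passed the count filter. Most of their summed level, 34.0 to 35.2 CPM in DMSO and 29.1 to 31.5 CPM in MBZ, came from ACA9, a calcium pump gene with 31.0 ± 0.872 and 27.7 ± 1.22 CPM (SD, n = 4 each). Besides ACA9, the genes that passed were CNGC18, HAP2 and MYB97, at 2.55, 0.561 and 0.2025 CPM in DMSO. In MBZ these had 1.48, 0.579 and 0.245 CPM. The markers VGD1, VGDH1 and TIP5;1 had means of at most 0.00562 CPM.

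**Figure D4:**
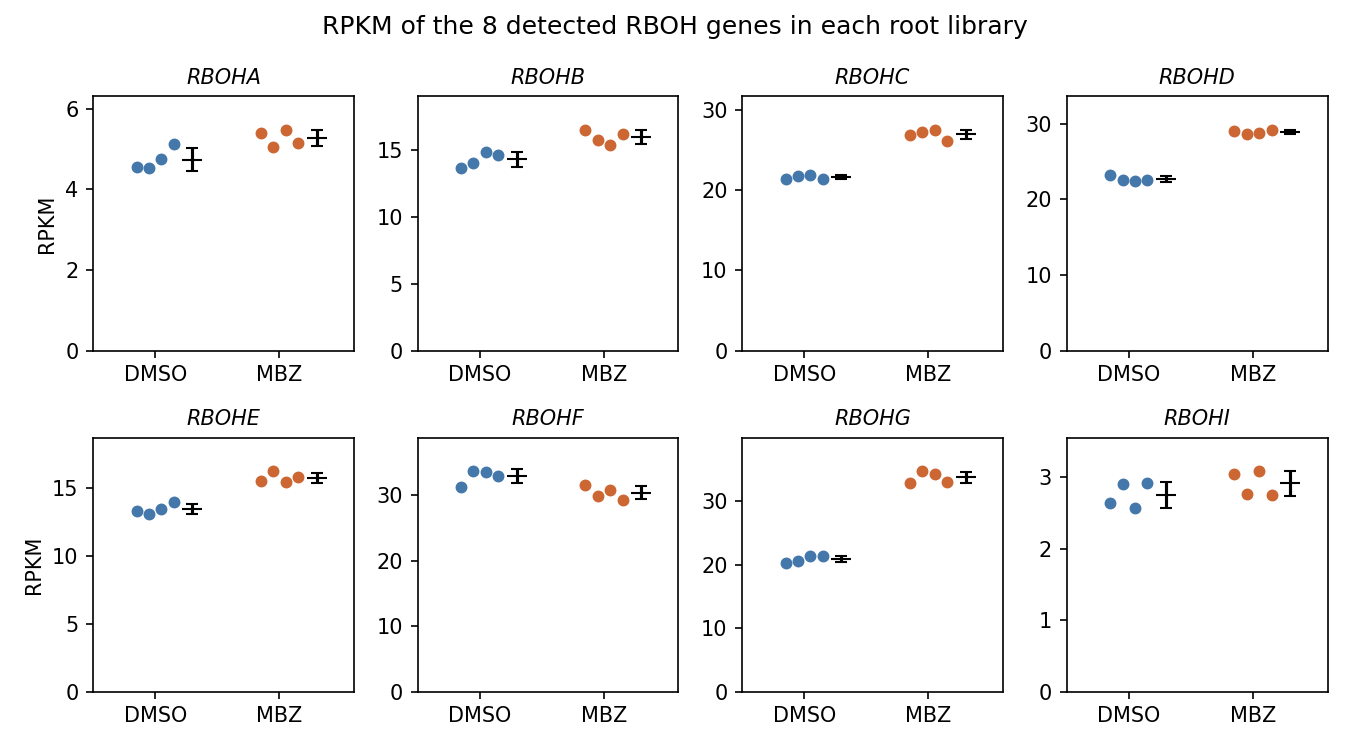
RPKM of the 8 RBOH genes with RPKM values (vertical axes, from 0, scaled per gene) in each DMSO (blue) and MBZ (orange) library, with the mean and SD of the 4 libraries in black. RBOHB, RBOHC, RBOHD, RBOHE and RBOHG separate by group with MBZ higher, while RBOHA, RBOHF and RBOHI overlap.

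The genes whose pattern over the 8 libraries lay nearest to that of RBOHG were sought among 18925 other genes of at least 50 mean counts, by the Euclidean distance between log2 CPM profiles centred on each gene's mean. They were MOP10 (AT5G05500) at a distance of 0.0634, JAZ1 (AT1G19180), a repressor of jasmonate signalling, at 0.0769, and AT2G22122 at 0.0777. Their log2 fold changes were 0.70, 0.70 and 0.74, near that of RBOHG because of the way they were chosen. Whether these genes share a regulator with RBOHG was not tested.

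Proteins that act on RBOH enzymes formed a list of 33 kinases, receptors, GTPases and partners, of which 32 passed the count filter. In MBZ 12 were higher and 12 lower (32.9% and 33.6% over all genes tested), with 8 not past the threshold. The median log2 fold change of the list was -0.01. The rises with the smallest p-values were of calcium-dependent kinases and a receptor-like cytoplasmic kinase. CPK4 rose from 29.7 ± 0.668 to 47.3 ± 0.349 CPM, CPK6 from 156.6 ± 1.03 to 203.1 ± 2.91 CPM and CPK5, which phosphorylates RBOHD, from 131.2 ± 1.88 to 171.1 ± 2.49 CPM (SD, n = 4 each). Their log2 fold changes were 0.67, 0.38 and 0.38, with edgeR adjusted p-values of 2.65e-35, 1.69e-34 and 1.95e-33. PBL13, a negative regulator of RBOHD, rose by 0.62 on the log2 scale (edgeR adjusted p = 9.67e-29).

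The fall with the smallest p-value in that list was of SGN1, the kinase of the Casparian strip barrier pathway upstream of RBOHF, at 103.2 ± 1.32 CPM in solvent against 78.2 ± 1.86 CPM under the drug (SD, n = 4 per group). SGN1 thus fell by 0.40 on the log2 scale (edgeR adjusted p = 6.25e-30). Its receptor SGN3 had a log2 fold change of 0.04 and was not past the threshold (edgeR adjusted p = 0.128), except without DMSO replicate 1, where its adjusted p was 0.0308. SCN1, a RhoGDI that confines RBOHC activity to a single site of the root hair cell, had a log2 fold change of -0.32 (edgeR adjusted p = 1.05e-24). CRK2, a receptor-like kinase that phosphorylates RBOHD, had -0.45, and RIPK, a cytoplasmic kinase that also acts on RBOHD, had -0.32. BIK1, the main immune kinase of RBOHD, rose by 0.46. Of the named regulators of RBOHD, CPK5, PBL13 and BIK1 thus rose while CRK2 and RIPK fell.

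Superoxide dismutases turn superoxide into hydrogen peroxide. Some of those listed work inside the cell, while RBOH enzymes release superoxide outside it. Which of them meet superoxide from RBOH enzymes was not tested. Of 8 genes, 7 passed the count filter, with 1 higher, 3 lower and 3 not past the threshold, and a median log2 fold change of -0.03. Over all genes tested 66.5% were past the threshold, 32.9% higher and 33.6% lower. FSD1 (AT4G25100), an iron superoxide dismutase, stood at 26.1 ± 0.931 CPM in solvent against 20.5 ± 0.828 CPM under the drug (SD, n = 4 per group) and fell by 0.35 on the log2 scale (edgeR adjusted p = 6.74e-13). FSD1 is also the gene next to RBOHG, 494 bases upstream of it on the same strand, and the 2 neighbours thus changed in opposite directions. MSD1, the mitochondrial manganese enzyme, and CSD1, the cytosolic copper and zinc enzyme, had log2 fold changes of -0.05 and -0.03 (edgeR adjusted p = 0.00558 and 0.0383). The call on CSD1 was lost without DMSO replicate 1, DMSO replicate 2, MBZ replicate 1 or MBZ replicate 3 (edgeR adjusted p from 0.0644 to 0.174), with no count filter and in DESeq2 (0.0620 and 0.0660). FSD3 had a log2 fold change of 0.19 (edgeR adjusted p = 0.0148) and lost its call without DMSO replicate 1 (0.159) or MBZ replicate 3 (0.0502). CSD2, CSD3 and FSD2 had log2 fold changes of -0.004, -0.08 and 0.03 and were not past the threshold; CSD3 passed it, lower, without MBZ replicate 3 (edgeR adjusted p = 0.0402), under upper-quartile scaling (0.0188), when scaled by library size alone (0.0379), and in limma on the RPKM values with a pseudocount of 1 (0.0136) or 0.1 (0.0137). MSD2 had a mean of 0.0877 CPM in DMSO and 0.131 CPM in MBZ and was not tested.

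Catalases and ascorbate peroxidases remove hydrogen peroxide. Of 11 genes, 10 passed the filter, 6 higher and 4 lower (32.9% and 33.6% over all genes tested), with a median log2 fold change of 0.12. CAT2 rose from 375.6 ± 4.57 to 475.5 ± 6.88 CPM and CAT3 from 783.8 ± 10.98 to 881 ± 13.3 CPM, while APX1, the cytosolic ascorbate peroxidase, fell from 873 ± 5.77 to 684.7 ± 11.2 CPM (SD, n = 4 each). Their log2 fold changes were 0.34, 0.17 and -0.35, and edgeR gave adjusted p-values of 8.89e-37, 4.77e-20 and 6.27e-41. SAPX and APX5 rose by 0.18 and 0.28, and CAT1 had a log2 fold change of -0.13. The plastid genes APX4 and TAPX had log2 fold changes of -1.07 and -0.80, beside the fall of the green-tissue markers given above. Both were scarce, at 3.15 and 3.16 CPM in DMSO. SAPX, which also encodes a plastid enzyme, had 149.2 CPM in DMSO and went the other way.

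The ferric reductases of the FRO family are membrane flavocytochromes of the same superfamily as the RBOH enzymes, and pass electrons to iron rather than to oxygen. Of 8 genes 5 passed the filter, 3 higher, 1 lower and 1 not past the threshold, with a median log2 fold change of 0.55. For comparison, 32.9% of all genes tested were higher and 33.6% lower. FRO2, the reductase of root iron uptake, rose from 55.7 ± 1.87 to 107.6 ± 1.47 CPM and FRO3 from 64.7 ± 1.82 to 94.5 ± 0.859 CPM (SD, n = 4 each), with log2 fold changes of 0.95 and 0.55 (edgeR adjusted p = 1.24e-55 and 6.06e-38). FRO4 and FRO8, with less than 1 CPM in every group, had log2 fold changes of 1.31 and -1.50.

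A last list held 11 genes that sense reactive oxygen or respond to it. Of these, 2 were higher, 8 lower and 1 not past the threshold, and the median log2 fold change was -0.57. Over all genes tested 66.5% were past the threshold, 32.9% higher and 33.6% lower. AOX1A, the alternative oxidase of mitochondria, fell from 125 ± 1.53 to 54.98 ± 1.35 CPM, UPOX (AT2G21640) from 23.7 ± 0.706 to 4.35 ± 0.436 CPM and OXI1, a kinase activated by hydrogen peroxide, from 39.3 ± 1.28 to 17.7 ± 0.335 CPM (SD, n = 4 each). Their log2 fold changes were -1.19, -2.45 and -1.15, with edgeR adjusted p-values of 1.26e-64, 2.15e-57 and 4.98e-47. AT1G19020, a gene induced by many oxidative treatments, had a log2 fold change of -0.60. The 2 rises were of ZAT10, a zinc finger factor of stress responses, by 0.93, and of UPB1, by 1.097. UPB1 is a bHLH factor that represses peroxidase genes in the root tip rather than a gene known mainly for its induction by oxidants. Of the 8 falls, AT1G57630 lost its call without DMSO replicate 4 (edgeR adjusted p = 0.0773) or MBZ replicate 2 (0.0540). Hydrogen peroxide and superoxide were not measured here.

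**Figure D5:**
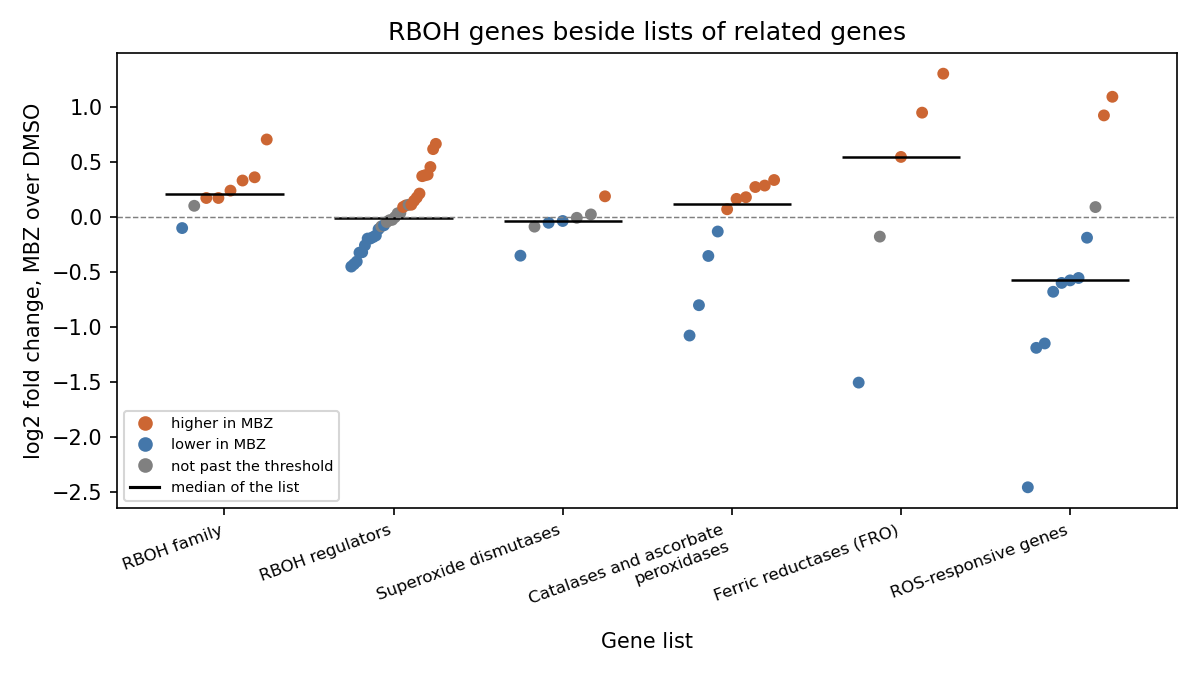
Log2 fold change of MBZ over DMSO (vertical axis) for each tested gene of the RBOH family and of 5 lists of related genes (horizontal axis), coloured by the edgeR call, with the list median as a black line. The RBOH median lies at 0.21, that of the regulators at -0.01 and that of the genes that sense or respond to reactive oxygen at -0.57.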

How the data were processed

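RNA from 8 root libraries, 4 per group, was analysed from 2 tables. The authors deposited raw read counts for 33602 genes and RPKM values for 17872 of them, with no column left out (0). The submitters' processing notes name STAR 2.7.0a, edgeR 3.36.0 and build TAIR10; the counting program, annotation and strand setting are not given in the sources used here.

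Deposited counts were fitted in edgeR 4.0.16 under R 4.3.3 by quasi-likelihood, after filterByExpr (20867 genes kept) and TMM scaling, with group as the single factor. The fit was also run on simulated data in which few genes were changed. That run cannot check the scaling or the error rate where most genes are called, as here. SE is the absolute log2 fold change over the square root of F; CPM used TMM-scaled totals. Totals of 38042437 to 54818801 counts set the counting precision. The floors and the counting error given for RBOHI cover counting error only, while SE and SD also hold the spread between libraries. Alternatives were DESeq2 1.42.0, other scalings and filters, limma 3.58.1 on the deposited RPKM, a replicate block, a 1.5-fold test and each library left out. Equal replicate numbers were not treated as pairs in the main fit, since the labels do not say that such libraries were handled together.

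Symbols and sequences came from RefSeq TAIR10.1 (32835 identifiers matched; RBOHE, RBOHG, RBOHH, RBOHI and RBOHJ carry locus names there) and proteins were aligned with Biopython 1.88. Named were all members, all superoxide dismutases, up to 4 genes per list and direction by p-value, and the 3 genes nearest RBOHG. Others were added after their values were seen. These were BIK1, SGN3, AT1G57630, CASP1, RSL2, RSL4, PRP1, SCR, PYK10, ACA9, CNGC18, HAP2, MYB97 and genes beside or overlapping RBOH loci. The members and lists were chosen with earlier results of these data known.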

Additional observations from a re-analysis of the deposited data

How the results depend on the processing

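In the alternatives other than the test against a 1.5-fold change, the RBOH counts of 6 higher and 1 lower did not move, including the fits that left out 1 library each. In the test against a 1.5-fold change, RBOH members numbered 1 higher and 0 lower, all genes called 2564 (1244 higher, 1320 lower), regulators 1 higher and 0 lower, superoxide dismutases 0 higher and 0 lower, catalases and ascorbate peroxidases 0 higher and 1 lower, FRO genes 1 higher and 1 lower, and genes sensing or responding to reactive oxygen 2 higher and 3 lower. That test asks for a larger change by its construction. The 1 lower FRO gene, FRO8, was outside both the genes of 50 or more mean counts and the RPKM table (either pseudocount), so these settings gave 0. Higher FRO genes numbered 2 in the same settings. Leaving out 1 library gave between 0 and 1 higher and between 2 and 3 lower superoxide dismutases. Such fits gave between 12 and 13 higher and between 10 and 13 lower regulators. Lower genes sensing or responding to reactive oxygen then numbered between 7 and 8. RBOHG ranged from 0.67 to 0.71 over 9 alternatives and RBOHF from -0.13 to -0.09. Upper-quartile factors shifted the median of all genes to -0.03 (log2) and library size alone to -0.02.

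The labels do not say that libraries of equal replicate number were handled together. The deviations of same-numbered libraries from their group means correlated between -0.0433 and 0.00579 over the 4 pairs, which cannot show how they were handled. With the replicate block, RBOH members again numbered 6 higher and 1 lower, with log2 fold changes of 0.71 for RBOHG and -0.10 for RBOHF. RBOHH and RBOHJ have too few reads for any change to be seen at this depth.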

Other observations

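Of the 10 genes next upstream of an RBOH gene, 9 were tested and 7 were past the threshold, 4 higher and 3 lower, where 66.5% of all genes tested were past it. Those upstream of RBOHD and RBOHJ were not past it, and the one upstream of RBOHH was not tested. The widest log2 fold change was that of ARF19, an auxin response factor gene 10808 bases from RBOHE, at 0.77 (edgeR adjusted p = 3.07e-45). BIP3, upstream of RBOHB, had -0.51 and AT5G07400, upstream of RBOHA, had 0.35 (edgeR adjusted p = 0.0128 and 1.77e-07). Upstream of RBOHC lies ERD1 (AT5G51070), on the opposite strand at 1634 bases, with a log2 fold change of 0.12 (edgeR adjusted p = 1.46e-08). Upstream of RBOHI lies TOPP7 (AT4G11240), a protein phosphatase gene on the opposite strand at 1484 bases, with 0.30 (edgeR adjusted p = 5.92e-18), while RBOHI itself was not past the threshold. Upstream of RBOHF lies AT1G64050, on the same strand at 3605 bases, with -0.10 (edgeR adjusted p = 5.23e-04). These neighbours were named for their position, after the values were seen.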
